A study of Rattus norvegicus with 7 samples.

Results

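Angiotensinogen, insulin-like growth factor II (IGF-II), vitronectin and albumin are secreted proteins whose mRNA was lower in contused than in uninjured rat cortex 1 day post injury (1 dpi). They are represented by 4 of the 6240 features on the array, with the clone IDs RGIAJ86, RNABO23, RNABR91 and RGIAJ87, and were picked as secreted proteins among the clones that the study lists as lowered at 1 dpi. The values of 1 dpi therefore chose them and are given here as a description, without a test. The values of 4 dpi came from other animals and show which of the 4 mRNAs had returned towards the level of uninjured cortex and which had not. At 4 dpi, angiotensinogen lay at 88.5% of the uninjured level on average and IGF-II at 62.4%, while the mean of vitronectin over 3 arrays lay between these and albumin was measured on 2 arrays.

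The animals were male Sprague Dawley rats that received a cerebral cortical contusion by weight drop through a craniotomy. On each array, RNA from the impact area with surrounding cortex (ipsilateral) was hybridised against RNA from the opposite, uninjured cortex (contralateral) of the same rat. For replicate 2 of 4 dpi the label of the second channel names no side, and it was taken as the contralateral cortex. There were 3 arrays at 1 dpi and 4 arrays at 4 dpi, each from a different rat. The injured cortex was labelled with Cy5 on replicates 1 and 2 and with Cy3 on replicate 3 at 1 dpi, and with Cy5 on replicates 2 and 3 and with Cy3 on replicates 1 and 4 at 4 dpi. All 7 rats were injured, so the effects of craniotomy and contusion cannot be told apart, and a change shared by both hemispheres cancels in the ratio. Each value is the log2 ratio of injured over uninjured cortex, where 0 means equal signal and -1 means a signal 2-fold lower in the injured cortex. The ratios hold no absolute levels, so the labelled tissue could not be checked against its markers by level. In tissue RNA, fewer cells of a type and less RNA per cell cannot be told apart.

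Angiotensinogen is the precursor from which renin releases angiotensin I, the source of angiotensin II. The liver supplies the protein in plasma, and astrocytes are a known source in the brain. IGF-II is a growth factor that binds the IGF-I receptor and is taken up and degraded through the IGF-II/mannose-6-phosphate receptor. In the adult brain it is known chiefly from the choroid plexus, the leptomeninges and the vasculature. Vitronectin is an adhesive glycoprotein of plasma and extracellular matrix that binds integrins and plasminogen activator inhibitor 1, and in the brain its mRNA is known from pericytes. Albumin is the main protein of plasma and is made in the liver, and its protein enters brain tissue when the blood-brain barrier opens, whereas the arrays measured mRNA.

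Of the 4 genes, 3 were found in a RefSeq table of promoter windows of 300 bases around annotated gene starts (build GRCr8), with 1 window each for albumin and vitronectin and 2 for IGF-II. The windows of albumin and vitronectin are shown because these were the members whose ratios lay closest to each other, and because a factor named for the albumin promoter was among the clones nearest to both, as described further on. The albumin window lies at chr14:17906930-17907229 on the minus strand and the vitronectin window at chr10:63892532-63892831 on the plus strand, each written 5′ to 3′ in the direction of the gene. Capitals mark matches to 4 motifs searched on both strands: a core of the albumin D site (TTNTGTAA), the CCAAT box, a partial site of hepatocyte nuclear factor 1 (GTTAAT) and the TATA box (TATAAA).
Alb: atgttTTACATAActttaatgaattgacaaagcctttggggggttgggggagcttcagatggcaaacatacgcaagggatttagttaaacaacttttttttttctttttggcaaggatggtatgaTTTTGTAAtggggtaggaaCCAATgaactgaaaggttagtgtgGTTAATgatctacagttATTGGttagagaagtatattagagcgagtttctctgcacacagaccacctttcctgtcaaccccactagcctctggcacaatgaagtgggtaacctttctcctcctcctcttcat
Vtn: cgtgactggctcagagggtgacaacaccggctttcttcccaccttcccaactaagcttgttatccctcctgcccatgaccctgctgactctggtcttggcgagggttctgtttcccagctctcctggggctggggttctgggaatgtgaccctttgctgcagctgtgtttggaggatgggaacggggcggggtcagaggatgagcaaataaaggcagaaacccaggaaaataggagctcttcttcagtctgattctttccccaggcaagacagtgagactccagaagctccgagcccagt
The albumin window held the D-site core at bases 126 to 133 on the strand of the gene and at bases 6 to 13 on the opposite strand. It also held CCAAT at bases 145 to 149, its reverse complement at bases 186 to 190 and GTTAAT at bases 169 to 174, while TATAAA was not among its letters. None of the 4 motifs was found in the vitronectin window or in either IGF-II window. Of 33469 promoter windows of this length, 4.05% held the D-site core, 37.5% CCAAT, 7.45% GTTAAT and 14.2% TATAAA. The motif letters were chosen with the albumin window in view, and a match or its absence describes these letters only.

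The number of features with a value ran from 3993 to 5208 of 6240 per array at 1 dpi and from 2332 to 5082 at 4 dpi, because weak or absent spots (below 2 times the background) carry no value. The median log2 ratio of every array lay within 0.01 of 0 and the median absolute deviation between 0.161 and 0.244. Values of the members were absent on 4 occasions, once for vitronectin at 1 dpi and 3 times at 4 dpi (vitronectin on replicate 3, albumin on replicates 3 and 4). These were the arrays with the fewest features of their group, namely replicate 1 of 1 dpi and replicates 3 and 4 of 4 dpi. Replicate 1 of 4 dpi had the lowest correlations across features with the arrays of 1 dpi, at 0.16, 0.01 and 0.42 with replicates 1, 2 and 3. Replicate 4, the other array of 4 dpi with injured RNA in Cy3, had 0.35, 0.26 and 0.53 with the same arrays. Replicates 2 and 3 of 4 dpi, with injured RNA in Cy5, had 0.43 to 0.64. Within 4 dpi, replicate 1 correlated at 0.49 and 0.52 with replicates 2 and 3. Its correlation with replicate 4, at 0.74, was the highest of that group. Whether the dye plays a part in these correlations was not tested. Without replicate 1 of 4 dpi, the means of 4 dpi reported below were -0.15 for angiotensinogen, -0.65 for IGF-II, -0.47 for vitronectin and -0.51 for albumin, the last on 1 array.

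Angiotensinogen mRNA was strongly lowered at 1 dpi and close to the uninjured level at 4 dpi. At 1 dpi its log2 ratios were -1.09, -0.92 and -1.48 on replicates 1, 2 and 3. Their mean was -1.17 ± 0.29 (SD, n = 3), which is 44.6% of the uninjured level, and only 15 of the 4952 features with at least 2 values at 1 dpi, itself included, had a mean this low or lower. At 4 dpi the ratios were -0.25, -0.10, -0.36 and 0.01 on replicates 1 to 4. All 4 animals of 4 dpi lay above all 3 animals of 1 dpi, without overlap, and the animal of replicate 4 showed no lowering. The mean at 4 dpi was -0.18 ± 0.16 (SD, n = 4), which did not pass the test against 0 (limma, adjusted p = 0.254 over 3191 features, unadjusted p = 0.0966). The 95% interval of this mean ran from -0.39 to 0.04, or from 76.3% to 103% of the uninjured level, so a loss of that size lay within the error of 4 arrays. On the log2 scale, 15.1% of the lowering at 1 dpi was left. The mean at 4 dpi depended on single animals and was -0.11 without replicate 3 and -0.24 without replicate 4.

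IGF-II was the member that stayed low. At 1 dpi its log2 ratios were -0.90 and -1.06 on replicates 1 and 2 and -0.33 on replicate 3, which made the group uneven, with 1 animal much less lowered than the others. The mean was -0.76 ± 0.38 (SD, n = 3), or 59.0% of the uninjured level, the smallest lowering of the 4 members at that time, and it was -0.61 without replicate 2 and -0.98 without replicate 3. At 4 dpi the ratios were -0.76, -0.70, -0.67 and -0.59 on replicates 1 to 4. These 4 values lay within a narrow band and inside the range of the 3 values of 1 dpi, so the groups overlapped. The mean at 4 dpi was -0.68 ± 0.07 (SD, n = 4), or 62.4% of the uninjured level, with a 95% interval of 54.6% to 71.3%. It differed from 0 with an adjusted p of 0.00132 (limma), and IGF-II lay below 0 on all 7 arrays.

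The strength of the call on IGF-II at 4 dpi turned on the limit set on the mean. A lowered call needed a mean log2 ratio below -0.7 with a limma adjusted p no higher than 0.02, and the mean of IGF-II lay just short of that limit. At 4 dpi 12 of 3191 features (0.376%) met both conditions and none of the 3 members tested was among them, whereas 67 features (2.1%) were lower at the same adjusted p with no limit on the mean, IGF-II included. Only 16 of the 3191 features, IGF-II included, had a mean as low or lower. It was called lowered with a limit of 1.6-fold in place of 0.7, with every array scaled to a common median absolute deviation (mean -0.79, limma adjusted p = 0.00175) and without replicate 4 (mean -0.71, limma adjusted p = 0.00853).

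Vitronectin was intermediate and varied between animals. At 1 dpi it had no value on replicate 1, and its log2 ratios were -1.43 on replicate 2 and -0.98 on replicate 3. Both animals were clearly lowered, with a mean of -1.21 ± 0.32 (SD, n = 2) or 43.4% of the uninjured level. At 4 dpi the ratios were -0.32 on replicate 1, -0.80 on replicate 2 and -0.15 on replicate 4, with no value on replicate 3. All 3 lay above both values of 1 dpi, and replicate 2 was still far below the other animals of 4 dpi. The mean was -0.42 ± 0.34 (SD, n = 3), or 74.7% of the uninjured level, and it did not pass the test (limma, adjusted p = 0.0857, unadjusted p = 0.0162). Its 95% interval ran from 59.8% to 93.3%, and without replicate 2 the mean was -0.23. A remaining 34.9% of the lowering at 1 dpi was left on the log2 scale.

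Albumin had the lowest mean of the members at 1 dpi, with log2 ratios of -1.47, -1.41 and -0.82 on replicates 1, 2 and 3. The mean was -1.23 ± 0.36 (SD, n = 3), or 42.5% of the uninjured level, and 10 of the 4952 features, itself included, were as low or lower. At 4 dpi albumin was measured on replicates 1 and 2 only, at -0.11 and -0.51. Both values lay above the 3 values of 1 dpi, and both were below 0. The mean of these 2 arrays was -0.31 ± 0.29 (SD, n = 2), or 80.7% of the uninjured level. The main test required values on 3 of 4 arrays, which albumin did not have. When values on 2 arrays were accepted, a choice made after seeing the data, its mean did not pass the test against 0 (limma, adjusted p = 0.268).

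**Figure D1:**
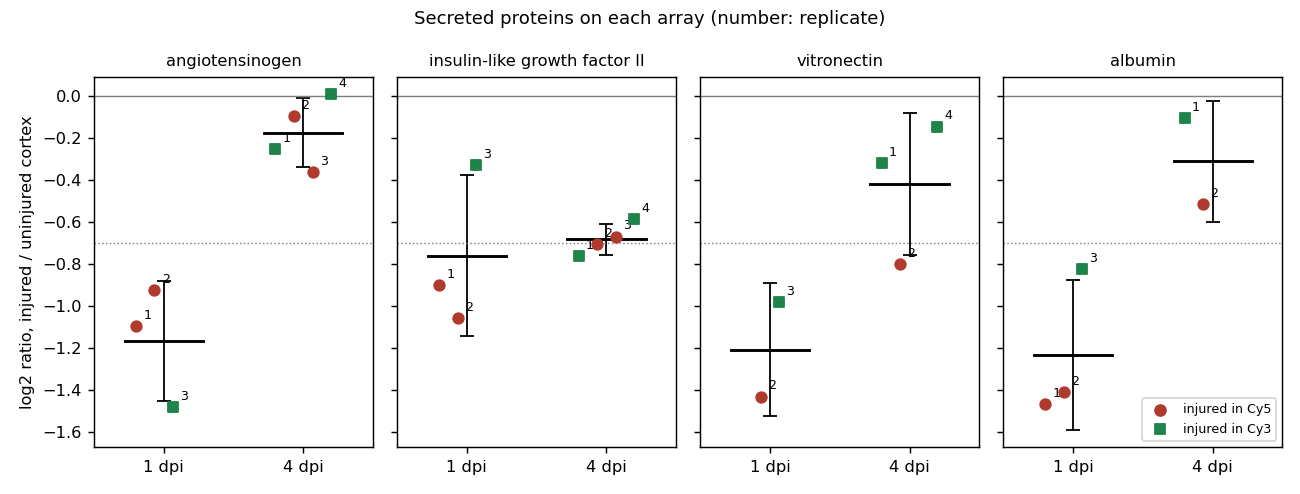
Log2 ratio of injured over uninjured cortex (vertical axis) for each member on each array at 1 dpi and 4 dpi. Each point is 1 animal, numbered by replicate, red circles with injured RNA in Cy5 and green squares with injured RNA in Cy3; thick bars are means, thin bars SD, and the dotted line is the limit of -0.7. Angiotensinogen, vitronectin and albumin moved upward without overlap between the days, while the 4 values of IGF-II at 4 dpi (-0.76 to -0.59) lay inside its range at 1 dpi. All members were chosen as low at 1 dpi, which favours an upward move.

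The 4 members were therefore ordered differently at the 2 times. With both days fitted together in limma, the difference of 4 dpi minus 1 dpi was 0.99 (SE 0.16) for angiotensinogen, 0.79 (SE 0.23) for vitronectin and 0.08 (SE 0.17) for IGF-II, and the difference of the albumin means was 0.92. These differences are descriptions, since the values of 1 dpi chose the members. For orientation, 159 of the 3188 features with enough values on both days (4.99%) had a limma adjusted p of 0.05 or less for this difference, 111 of them (3.48%) higher at 4 dpi. Every pairing of an animal of 4 dpi with an animal of 1 dpi had the higher ratio at 4 dpi for angiotensinogen (12 of 12), vitronectin (6 of 6) and albumin (6 of 6), compared with 8 of 12 for IGF-II. How many of all features separated in this way was not counted. The choice of the members by low values at 1 dpi favours such a separation, so these counts are no evidence of a trait of the members. The small difference of IGF-II had no stable sign, and became -0.068 without replicate 2 of 1 dpi and -0.022 with the arrays scaled to a common median absolute deviation.

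Comparing the members within each animal removes only differences shared by all features of an array. Differences particular to a gene remain, and at 1 dpi the gap of angiotensinogen minus IGF-II ran from -1.15 to 0.13. At 1 dpi, albumin lay below IGF-II on 3 of 3 arrays and vitronectin below IGF-II on 2 of 2, so IGF-II was less lowered than both. At 4 dpi the order had turned, and IGF-II lay below albumin on 2 of 2 arrays and below vitronectin on 2 of 3. Against angiotensinogen the order at 1 dpi was mixed, with IGF-II lower on 1 of 3 arrays, and at 4 dpi IGF-II was lower on 4 of 4 arrays, by 0.31 to 0.61 on the log2 scale. At 4 dpi, vitronectin was below angiotensinogen on 3 of 3. Angiotensinogen and albumin had no fixed order at either time, with angiotensinogen lower on 1 of 3 arrays at 1 dpi and on 1 of 2 at 4 dpi. These counts have no test, because an exact sign test on 4 animals cannot reach a two-sided p under 0.05. The sizes of the gaps were not tested.

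Vitronectin and albumin tracked each other most closely. Over the 4 arrays with both values, their log2 ratios differed by 0.17 on average, whereas the other 5 pairs of members differed by 0.39 to 0.50 over 5 to 7 arrays. The widest average gap, 0.50 over 7 arrays, was between angiotensinogen and IGF-II. Vitronectin was lower than albumin on both arrays of 1 dpi and both arrays of 4 dpi that measured the pair.

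**Figure D2:**
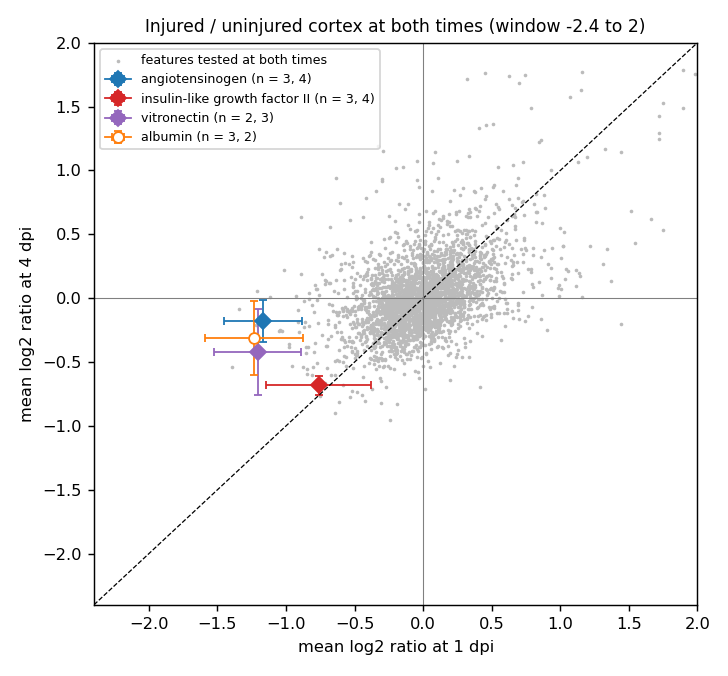
Mean log2 ratio of injured over uninjured cortex at 1 dpi (horizontal axis) and 4 dpi (vertical axis); grey points are features tested at both times and lie within the plotted window, coloured diamonds are members with SD bars, and the open circle is albumin, which had 2 values at 4 dpi. IGF-II lay near the dashed line of equal means, and angiotensinogen (-1.17 and -0.18), vitronectin (-1.21 and -0.42) and albumin (-1.23 and -0.31) lay above it.

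The dye carrying the injured RNA moved with some of the values. At 1 dpi, the mean of the 2 arrays with injured RNA in Cy5 and the value of the array with injured RNA in Cy3 were -1.01 and -1.48 for angiotensinogen, -0.98 and -0.33 for IGF-II, and -1.44 and -0.82 for albumin. Vitronectin had -1.43 in Cy5 and -0.98 in Cy3, on 1 array each. The Cy3 array was thus the lowest for angiotensinogen and the highest for IGF-II, vitronectin and albumin. At 4 dpi, where each dye was used on 2 arrays, the means in Cy5 and Cy3 were nearly equal for IGF-II (-0.69 and -0.67) and close for angiotensinogen (-0.23 and -0.12). Vitronectin had -0.80 in Cy5 on 1 array and a mean of -0.23 in Cy3 on 2 arrays, and albumin -0.51 and -0.11 on 1 array each. A dye term in the limma fit of both days gave -0.52 (SE 0.15) for vitronectin with an adjusted p of 0.159 (unadjusted p = 0.0077), and adjusted p-values of 0.367 for IGF-II and 0.682 for angiotensinogen, beside 2 of 3188 features (0.0627%) with an adjusted p of 0.05 or less. Albumin was left out of this fit by the requirement of 3 values at 4 dpi. Since 1 array of 1 dpi carried the injured RNA in Cy3, dye and animal cannot be told apart there.

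The members were next set beside the other features called lowered at 1 dpi. By the rule given above, 75 of 4952 features (1.51%) were called, and all 4 members were among them, as their selection implies. At 4 dpi 52 of the 75 could be tested, 3 of them members, and 23 had too few values, albumin included. The 49 others had a median of the mean log2 ratios of -0.85 at 1 dpi and of -0.23 at 4 dpi, with quartiles of -0.42 and 0.02 and a range of -0.76 to 0.64. Among the 49, 8 were still lower at an adjusted p of 0.02 or less with no limit on the mean, and 14 had a mean above 0. Of the members, IGF-II had 1 of these 49 features below it at 4 dpi, vitronectin 13 and angiotensinogen 29. Thus IGF-II stood near the low end of these features, vitronectin at about the lower quartile and angiotensinogen a little above the median.

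**Figure D3:**
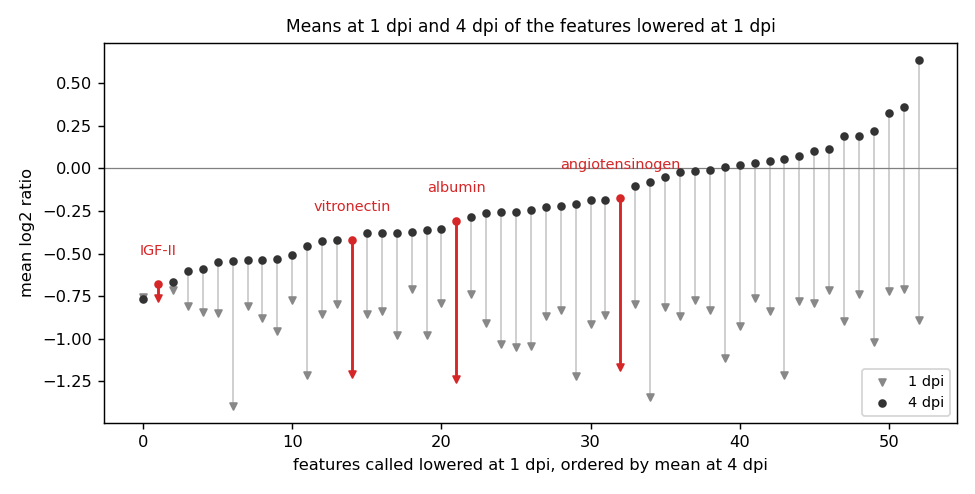
Mean log2 ratio of injured over uninjured cortex (vertical axis) at 1 dpi (triangles) and 4 dpi (circles) for the 52 features lowered at 1 dpi and tested at 4 dpi, with albumin added, ordered along the horizontal axis by their mean at 4 dpi; the members are in red. IGF-II hardly moved, and 1 other feature lay below it at 4 dpi, against 13 below vitronectin and 29 below angiotensinogen.

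The listed clones with the most similar ratios were found for each member by the mean absolute difference of log2 ratios, over the features with a value on all 7 arrays. For angiotensinogen, over 7 arrays and 2189 features, they were G protein beta 1 (0.26), a clone similar to glutathione S-transferase theta (0.27) and a clone of unknown identity (RGIBB66, 0.27). For IGF-II they were the septin CDCrel-1A (0.22), a clone similar to nuclear cap binding protein subunit 2 (0.22) and an unknown clone (RGIAM79, 0.24). CDCrel-1A, which is found at presynaptic terminals and was among the neuronal markers used here, had a mean of -0.43 at 1 dpi and -0.80 at 4 dpi. For vitronectin, over the 5 arrays on which it was measured, they were D site albumin promoter binding protein (DBP, 0.23), beta-1,3-glucuronyltransferase 1 (0.24) and a carbonic anhydrase-related protein (0.26). For albumin, over 5 arrays, they were DBP (0.19), fibrinogen-like protein 2 (0.21) and the sphingosine-1-phosphate receptor Edg-1 (0.21). When Pearson's correlation replaced the difference, other clones were named for every member, and Edg-1 for albumin was the single clone in both sets, so the nearest clones depend on the measure. The arrays compared include those of 1 dpi, on which the members and many of the listed clones were chosen as lowered, so nearness is in part fixed by that choice.

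DBP is a transcription factor of the circadian clock output, named for its binding to the D site in the albumin promoter printed above. Its log2 ratios were -1.81, -1.08 and -0.75 at 1 dpi and -0.18, -0.62, -0.62 and -0.40 at 4 dpi, in the order of the replicates. It was thus low on all 7 arrays and less so at 4 dpi, with means of -1.21 ± 0.54 (SD, n = 3) and -0.46 ± 0.21 (SD, n = 4). Of all 2190 features compared with albumin, none lay nearer to it than DBP, and 1 lay nearer to vitronectin, but DBP too is listed by the study as lowered on the arrays of 1 dpi. With injured RNA in Cy5, DBP had -1.81 and -1.08 at 1 dpi and -0.62 on both arrays at 4 dpi. In Cy3 it was less low, at -0.75 and at -0.18 and -0.40. Albumin and vitronectin were likewise lower in Cy5 at both times. Whether the dye plays a part in this nearness was not tested. The mean of DBP at 4 dpi had a limma adjusted p of 0.0205, just short of 0.02. Binding of DBP was not measured.

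The members were set beside other secreted proteins that the study lists as changed on these arrays. Since the study selected these clones on the same values, their counts are no independent evidence of a direction, and no test compared them with the members. Beside them stands the share of all features called raised, 3.9% at 1 dpi and 2.63% at 4 dpi, and the median mean log2 ratio of all features tested, 0.01 and -0.01. Of 9 clones for plasma and acute phase proteins, the kin of albumin in plasma, 8 were used. At 1 dpi 3 of 8 were raised and 1 was lowered, with a median of 0.47, and at 4 dpi 4 of 6 were raised and none was lowered, with a median of 1.26. On replicate 1 of 4 dpi, which also gave 1 of the 2 albumin values of that day, the mean over the clones of the list was 0.21, against 1.22 to 1.37 on the other 3 arrays. These means are not of the same clones, with 8 on replicate 1 and 7, 6 and 6 on replicates 2, 3 and 4. The highest at both times was the protease inhibitor CPI-26, at 2.06 ± 1.03 (SD, n = 2) and 2.29 ± 1.70 (SD, n = 4). Among the clones with enough values for the test, the lowest was fibrinogen-like protein 2, also among the clones nearest to albumin, at -0.98 ± 0.41 (SD, n = 3) and -0.36 ± 0.18 (SD, n = 4). At 1 dpi the mean of albumin, which was chosen as lowered, lay below those of all 8 clones. At 4 dpi its mean of 2 arrays, -0.31, lay close to that of fibrinogen-like protein 2. Tissue factor pathway inhibitor, named here after its values were seen, had -0.80 on 1 array of 4 dpi, replicate 1.

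Vitronectin, chosen as lowered, was set beside 7 other extracellular matrix proteins that the study lists as raised, so a contrast between them is fixed by the choice. Of these 7 clones, 3 were raised at 1 dpi and 6 at 4 dpi and none was lowered at either time, with medians of 0.45 and 1.08. Osteopontin, a secreted ligand of integrins and CD44, was the highest at 3.47 ± 0.91 (SD, n = 3) and 5.81 ± 0.67 (SD, n = 4). Collagen I alpha 1, the fibrillar collagen of scar and meninges, was the lowest at 1 dpi, at -0.41 ± 0.37 (SD, n = 3), and matrix Gla protein the lowest at 4 dpi, at 0.39 ± 0.63 (SD, n = 4). Osteonectin (-0.30) and collagen III alpha 1 (-0.05), named after their values were seen, also had means below 0 at 1 dpi. All 7 means at 4 dpi were above 0, and that of vitronectin was -0.42.

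Of 13 listed growth factors, secreted peptides and their binding protein, 8 were raised and 1 was lowered at 1 dpi, with a median of 0.87, and 3 of the 5 with enough values were raised at 4 dpi, with a median of 1.02. Heparin-binding EGF-like growth factor (HB-EGF) was the highest at 1 dpi, at 2.77 ± 0.07 (SD, n = 2), and stromal cell-derived factor-1 gamma, a chemokine, was the lowest, at -1.37 ± 0.62 (SD, n = 3). At 4 dpi, the precursor of the neuropeptide orexin was the highest of these 5, at 2.94 ± 0.94 (SD, n = 4), and transforming growth factor beta 2 the lowest, at 0.22 ± 0.39 (SD, n = 3). Stromal cell-derived factor-1 gamma, with too few values for the test, was lower still at -0.62 ± 0.19 (SD, n = 2). IGF-binding protein 3, which carries IGF-I and IGF-II and was picked from the list after its values were seen, went opposite to IGF-II with 1.25 ± 0.16 (SD, n = 3) at 1 dpi, and its single value at 4 dpi was 0.78. Tissue plasminogen activator, the protease whose inhibitor is held by vitronectin, was raised at 1 dpi at 1.54 ± 0.14 (SD, n = 3) and had 0.43 ± 0.51 (SD, n = 4) at 4 dpi, which did not pass the test (limma, adjusted p = 0.125).

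Markers of several cell types changed on the same arrays. They too were taken from the clones that the study lists as changed, the neuronal markers all from its lowered clones, so their directions follow from the choice. Of 6 macrophage and microglia markers, 5 of 6 tested at 1 dpi and 5 of 5 at 4 dpi were raised, and their mean per array ran from 0.65 to 0.99 and from 1.18 to 2.12. Of 6 neuronal markers, 3 of 6 and 4 of 5 were lowered, beside 1.51% and 0.376% of all features, and their mean per array ran from -0.91 to -0.48 at 1 dpi and from -1.09 to -0.55 at 4 dpi. Peptides made by neurons, listed by the study as raised and counted above with the secreted factors, had means above 0 at 1 dpi, with neuropeptide Y at 1.45, cholecystokinin at 0.87, orexin at 1.75, a clone similar to oxytocin at 0.87 and prepronociceptin at 0.68. At 4 dpi they were mixed, with neuropeptide Y at 1.14, cholecystokinin at 0.59, orexin at 2.94, the clone similar to oxytocin at -0.29 on 2 arrays and prepronociceptin at -0.035 on 1 array. The astrocyte markers with values were vimentin, also made by other reactive and vascular cells, which was raised at 1.37 and 2.31, and 1-Cys peroxiredoxin, which was lowered at 1 dpi, at -0.71 ± 0.25 (SD, n = 3), and had 0.11 ± 0.42 (SD, n = 4) at 4 dpi. The astrocyte mean per array ran from 0.08 to 0.75 and from 0.94 to 1.67. The 3 markers of fibroblasts and meninges, of which 1 was raised at 1 dpi and 2 at 4 dpi, had means per array from -0.17 to 0.46 and from 0.48 to 1.00. Whether these cell type changes play a part in the ratios of the 4 members was not tested.

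**Figure D4:**
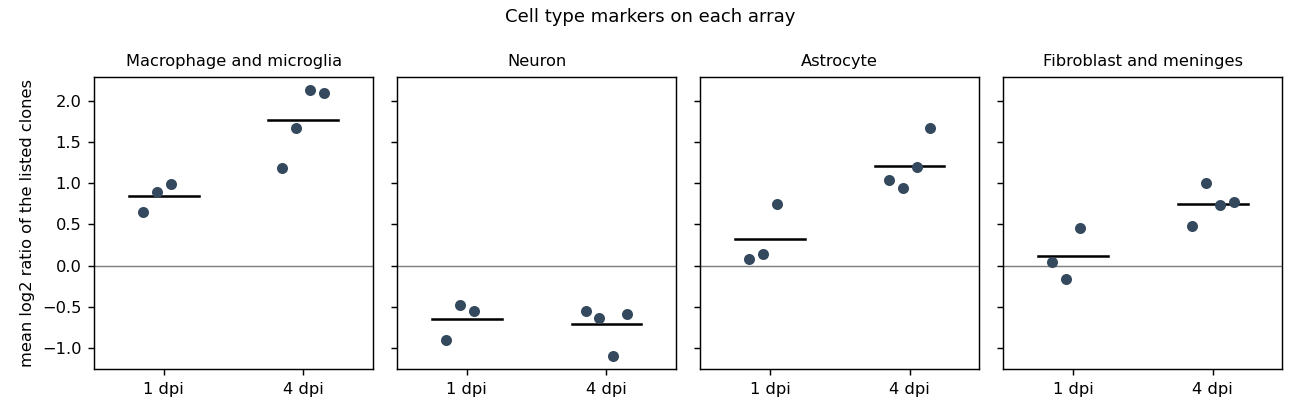
Mean log2 ratio of injured over uninjured cortex (vertical axis) over the listed marker clones of each cell type, with 1 point per array at 1 dpi (3 arrays) and 4 dpi (4 arrays) and bars at the mean of the arrays. Macrophage and microglia markers lay above 0 on all 7 arrays (0.65 to 2.12) and neuronal markers, all chosen from lowered clones, below 0 on all 7 arrays (-1.09 to -0.48).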

How the data were processed

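RNA of 7 rats was hybridised to cDNA arrays in 2 colours. The authors subtracted the local background from mean spot intensities, dropped absent and weak spots (below 2 times the background), applied Lowess per array with dye swaps turned, and deposited log2 ratios of injured over uninjured cortex. The number of arrays limits precision, since intensities were not analysed here, and 0 value columns belonged to no sample. Each feature's mean was tested against 0 with limma 3.58.1 in R 4.3.3, with Benjamini-Hochberg adjustment over all features with values on at least 2 of 3 arrays at 1 dpi or 3 of 4 at 4 dpi. Calls needed a mean beyond 0.7 and an adjusted p no higher than 0.02, the sizes of the limits in the methods, which name SAM. The methods call the limit of 0.7 a mean ratio cut-off and also state that it was applied to each array. Here it was applied to the mean over arrays only. Differences between days came from 1 fit of all 7 arrays. The fits were tested on simulated data. Figures used matplotlib 3.10.9 and pandas 2.3.3 in Python 3.11.15.

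Named were the 4 members, the highest and lowest clone of each list at each time, the 3 listed clones nearest to each member, and DBP; other clones are said to be named after their values were seen, or are given as neuronal peptides or single values beside a list. Members, lists and rules were chosen with earlier results of these data known. Clone IDs were named through the study's lists, in which 238 of 253 clones could be used, 8 had values differing from the list by more than 0.2 on the log2 scale, 4 IDs were not matched (cystatin C and neuroserpin among them), 2 shared an ID and 1 had no value. Alternatives were SAM, limits on the mean, value filters, centring, scaling, a dye term, the replicate block and each array left out. The study's PCR was not analysed here.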

Additional observations from a re-analysis of the deposited data

Results flagged for a closer look

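Dixon's ratio was computed for the 31 genes with values on all 4 arrays of 4 dpi among the members, lists, markers and DBP. Angiotensinogen and IGF-II were covered and had no array standing apart, whereas vitronectin and albumin had too few values. It picked out 2 clones of the lists, where chance alone picks about 1 group in 20. Pancreatic secretory trypsin inhibitor type II had a log2 ratio of 0.45 on replicate 1 of 4 dpi, against 2.10 to 2.30 on the other 3 arrays, a gap of 0.888 of the whole range. The class III Fc gamma receptor, a macrophage marker, had 0.048 on the same array against 1.51 to 1.74 on the others, a gap of 0.863 of the range.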

How the results depend on the processing

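Of 117 values of members under alternatives, 4 gained a call and 2 changed sign, all 6 of these for IGF-II. The other 111 kept their direction and, at 4 dpi, stayed without a call, while values at 1 dpi and differences between days had no test. Their number is no measure of robustness. Several alternatives at 4 dpi changed only the test or its limits and kept the same mean, and albumin could not gain a call. Among the 111, the mean of IGF-II at 1 dpi left the limit of -0.7, at -0.65 with the dyes balanced and -0.69 and -0.61 without replicates 1 and 2. With swapped arrays given the opposite sign, IGF-II at 4 dpi was at -0.0062 (limma adjusted p = 0.999), where the balanced dyes cancel by construction. Its mean at 4 dpi was called lowered at -0.68 with a limit of 1.6-fold or no limit, at -0.79 with arrays scaled to a common median absolute deviation, and at -0.71 without replicate 4 (range -0.71 to -0.65 with each array left out). Its difference between days changed sign to -0.022 with scaling and to -0.068 without replicate 2 of 1 dpi (range -0.068 to 0.30); the cause was not tested. With no limit on the mean, features lowered at 1 dpi numbered 136 and at 4 dpi 67, and with scaling 21 at 4 dpi. Leaving out 1 array gave 51 to 103 features at 1 dpi and 4 to 14 at 4 dpi, with 4 without replicate 3 and 7 without replicate 4; the cause was not tested. SAM gave 76 and 12. Features differing between the days ranged from 37 to 196, with 37 and 62 without replicates 1 and 2 of 1 dpi and 98 and 55 without replicates 1 and 4 of 4 dpi. Replicate numbers name different rats, so they do not pair the arrays. Deviations of same-numbered arrays correlated at -0.17, 0.11 and -0.27, but only those of number 2 had the injured RNA in the same dye. These correlations therefore cannot decide on pairing. Over all pairs of a 1 dpi and a 4 dpi array, they ran from -0.095 to 0.40 with the same dye. With different dyes they ran from -0.32 to -0.03. With the replicate block, 30 features differed between days in place of 159, and the differences were 0.93 for angiotensinogen, 0.63 for vitronectin and 0.05 for IGF-II. The mean of angiotensinogen at 4 dpi ranged from -0.24 to -0.11 with each array left out. Vitronectin and albumin rest on 5 of 7 arrays each.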
